A study of Arabidopsis thaliana with 48 samples.

Results

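Untailed 3′ ends located 3 to 7 nt downstream of the D site were followed in 48 18S-ENDseq libraries of Arabidopsis thaliana. The D site is the 3′ boundary of mature 18S rRNA, and the sequence after it is the internal transcribed spacer ITS1. The deposited tables count reads at 30 end positions, and the 5 positions +3 to +7 with no added tail are defined by their place and not by a measured value, between the D site and the A1 cluster of ends at +8 to +13. Each level below is the untailed read count at an end as a percentage of the untailed D-site count of the same library. All 240 counts for the 5 ends were above 0, and they lay between 117 and 11697 reads.

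18S rRNA is the RNA of the small ribosomal subunit and is cut out of a longer precursor. ITS1 is cleaved, the new 3′ end is trimmed back by exonucleases, and the endonuclease NOB1 makes the final cut at the D site in the cytoplasm. eIF5B is a GTPase that joins the ribosomal subunits in translation initiation, and in yeast its homologue also acts on late pre-40S particles. Untemplated nucleotides are added to some precursor ends and are a known mark of RNAs handed to 3′ to 5′ decay.

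The series compared 4 genotypes, all in the Columbia (Col-0) background, as 18-day-old seedlings: hot3-2, which carries a T-DNA insertion in the eIF5B1 gene HOT3; hot3-2 dcl2 dcl4; dcl2 dcl4, which carries the alleles dcl2-1 and dcl4-2 of genes for Dicer-like ribonucleases that make small interfering RNAs; and WT. Each genotype was sampled in 3 fractions of a polysome extract, namely the nonpolysome part of a sucrose gradient, the total extract loaded on it and the polysome part, with 4 libraries a group. HOT3 was represented by 1 allele, so no second lesion of the gene is available here. The gradient sorts particles by size and does not separate tissues or cell types.

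Total reads were 1815545 to 6468532 a library, and the D site held 71.0% to 94.5% of them. For the 5 ends, the 95% Wilson counting interval had a half-width of 1.82% to 18.2% of the value (median 6.97%), and the reads carry no molecular identifiers, so it covers counting error only. No 2 libraries of a group agreed within sampling noise (chi-square per degree of freedom 5.61 to 359 over 72 pairs). The libraries hold rRNA ends only, so the HOT3, DCL2 and DCL4 transcripts could not be used to check the genotype labels. A higher percentage can come from more reads at an end or from fewer at the D site, and these cannot be told apart.

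The stretch in question has the same bases after both annotated 18S genes of the TAIR10.1 assembly (RefSeq), AT2G01010 on the plus strand of chromosome 2 (3706 to 5513) and AT3G41768 on the plus strand of chromosome 3 (14197677 to 14199484). Each gene model spans 1808 bp and ends at the D site, so the 5 ends lie in ITS1 outside the annotated exon, at chr2:5516-5520 and chr3:14199487-14199491. The 30 counted positions (chr2:5508-5537 and chr3:14199479-14199508), with +3 to +7 in capitals, read as follows.
ITS1 window: tcattgtcGATACctgtccaaaacagaacg
The 3′ ends of the molecules counted at each position are shown next because the base that ends each molecule differs, with the ITS1 bases in capitals and the last 20 bases of mature 18S rRNA in lower case.
End +3: aacctgcggaaggatcattgTCG
End +4: aacctgcggaaggatcattgTCGA
End +5: aacctgcggaaggatcattgTCGAT
End +6: aacctgcggaaggatcattgTCGATA
End +7: aacctgcggaaggatcattgTCGATAC
A tail was recorded only where the added bases do not match ITS1. A molecule with an added tail that begins with the next ITS1 base is therefore counted at a later end, with a shorter tail or none. The next base is A after +3 and +5, U (T above) after +4, and C after +6 and +7. A molecule ending at +3 or +5 with an added A is thus identical to an untailed molecule ending at +4 or +6. Such molecules cannot be told apart, and this holds for each of the 5 ends.

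In hot3-2 the 5 ends together were several-fold more abundant than in WT, and the profile within the stretch was different. Their summed level was 1.12% ± 0.225 of D-site reads in hot3-2 and 0.126% ± 0.0124 in WT in the nonpolysome fraction (SD, n = 4 each), 8.95-fold apart. In the total extract it was 0.449% ± 0.0535 in hot3-2 and 0.0840% ± 0.00347 in WT, and in polysomes 0.292% ± 0.0431 in hot3-2 and 0.0712% ± 0.0144 in WT. The 2 genotypes did not overlap in any of the 3 fractions. No test was run on the sum.

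The order of the 5 ends differed between the genotypes. In the hot3-2 total extract +7 was the highest end (mean 0.174%), followed by +4 (0.154%), +5 (0.0518%), +6 (0.0421%) and +3 (0.0273%). In the WT total extract +4 was the highest (0.0432%), followed by +3 (0.0161%), +7 (0.0107%), +6 (0.00740%) and +5 (0.00656%). The ranges of +7 and +4 overlapped in hot3-2 and those of +6 and +5 in WT, and their order varied between libraries. The ranges of +7 and +6 also overlapped in WT, but +7 was above +6 within every WT library (log2 ratio 0.30 to 0.82). Of the untailed reads at the 5 ends, +7 held 39.1% ± 4.66 in hot3-2 and 12.8% ± 1.83 in WT total extract, while +3 held 6.12% ± 0.784 in hot3-2 and 19.1% ± 2.67 in WT.

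**Figure D1:**
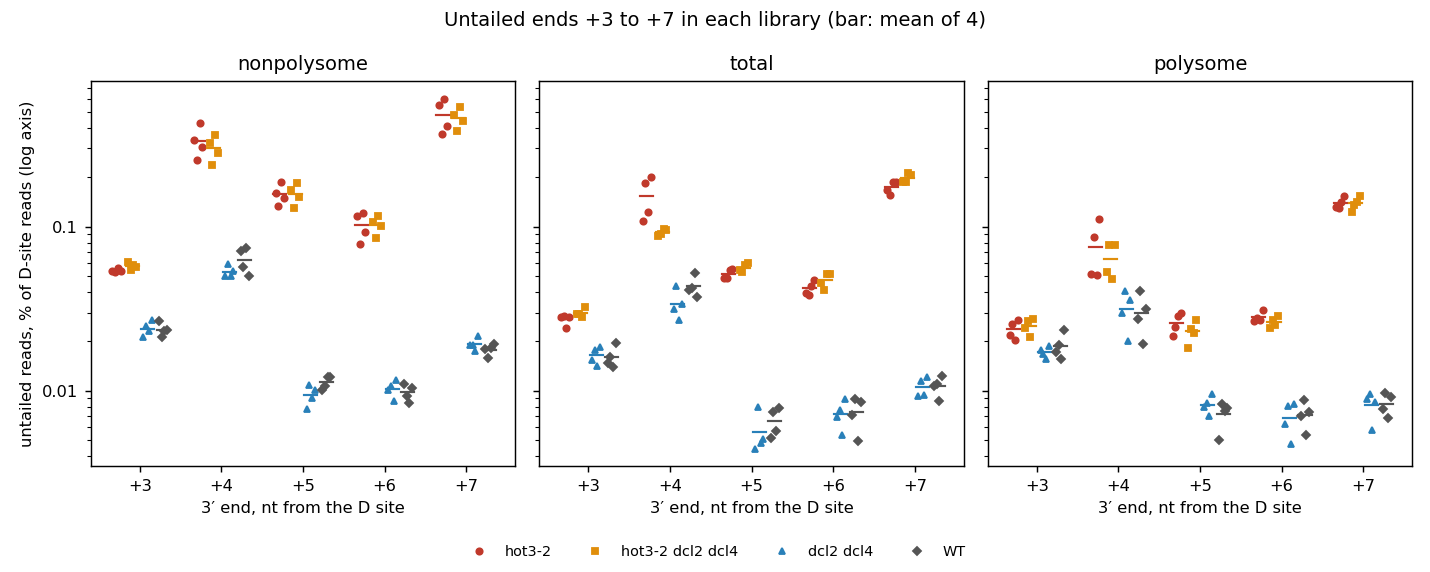
Untailed reads at +3 to +7 as a percentage of D-site reads (log axis) in each of the 48 libraries, with 1 panel for each fraction and a bar at the mean of 4 libraries. The hot3-2 and hot3-2 dcl2 dcl4 points at +7 are at 0.123% or more in every fraction, while those of dcl2 dcl4 and WT are at 0.0217% or less.

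The end nearest the D site, +3, changed least. In the nonpolysome fraction it stood at 0.0535%, 0.0527%, 0.0559% and 0.0536% in the 4 hot3-2 libraries, against 0.0267%, 0.0214%, 0.0230% and 0.0233% in WT. In the total extract the values were 0.0280%, 0.0287%, 0.0240% and 0.0284% in hot3-2, against 0.0147%, 0.0162%, 0.0140% and 0.0195% in WT. In polysomes they were 0.0221%, 0.0257%, 0.0204% and 0.0270% in hot3-2, against 0.0172%, 0.0191%, 0.0156% and 0.0234% in WT. Every hot3-2 library was above every WT library in the nonpolysome fraction and the total extract, and the genotypes overlapped in polysomes. The log2 fold change was 1.19 ± 0.16 in nonpolysomes (SE, edgeR adjusted p = 3.82e-05), 0.76 ± 0.12 in total extract (adjusted p = 8.66e-05) and 0.34 ± 0.22 in polysomes (adjusted p = 0.177), the last with a 95% interval of -0.13 to 0.80. With the replicate number as a block the polysome value was called (0.34, edgeR adjusted p = 0.0210), although the numbers did not meet the criterion for pairing there.

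The end +4 was the most variable of the 5 between the hot3-2 replicates of total extract and of polysomes. Its nonpolysome level was 0.338%, 0.255%, 0.426% and 0.305% in hot3-2, against 0.0709%, 0.0570%, 0.0742% and 0.0499% in WT. In the total extract it was 0.108%, 0.185%, 0.122% and 0.202% in hot3-2, against 0.0411%, 0.0425%, 0.0522% and 0.0372% in WT. In polysomes it was 0.0517%, 0.0867%, 0.0511% and 0.111% in hot3-2, against 0.0275%, 0.0406%, 0.0193% and 0.0313% in WT. Replicates 2 and 4 of hot3-2 were above replicates 1 and 3 in the total extract and in polysomes and below them in the nonpolysome fraction, and the genotypes did not overlap in any fraction. The split was not particular to hot3-2. In hot3-2 nonpolysomes it was also present at +5, +6 and +7 and not at +3. The summed levels given next include +4, which held 41.1% to 49.9% of them on average, so they do not separate +4 from the other ends. In WT polysomes the summed level of the 5 ends was 0.0866% and 0.0793% in replicates 2 and 4, and 0.0645% and 0.0546% in replicates 1 and 3. In WT nonpolysomes it was 0.114% and 0.115%, against 0.137% and 0.136%. In dcl2 dcl4 nonpolysomes it went the other way, with 0.125% and 0.124% against 0.108% and 0.108%. The log2 fold change was 2.39 ± 0.23 in nonpolysomes, 1.83 ± 0.20 in total extract and 1.34 ± 0.28 in polysomes (edgeR adjusted p = 1.94e-06, 3.73e-06 and 0.000123).

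The neighbours +5 and +6 were the lowest ends of WT and rose more than +4. At +5 the nonpolysome level was 0.159%, 0.133%, 0.187% and 0.149% in hot3-2, against 0.0101%, 0.0107%, 0.0122% and 0.0122% in WT, a log2 fold change of 3.80 ± 0.20 (edgeR adjusted p = 2.66e-08). At +6 it was 0.116%, 0.0779%, 0.121% and 0.0928% in hot3-2, against 0.0111%, 0.00935%, 0.00840% and 0.0105% in WT, a log2 fold change of 3.37 ± 0.22 (adjusted p = 1.66e-07). The genotypes were far apart at both ends. In the total extract the changes were 2.98 ± 0.14 at +5 and 2.50 ± 0.17 at +6 (adjusted p = 1.05e-09 and 3.37e-08), and in polysomes 1.85 ± 0.24 and 1.97 ± 0.23 (adjusted p = 3.98e-07 and 9.79e-08). In polysomes +5 lay between 0.0216% and 0.0296% in hot3-2 and between 0.00506% and 0.00838% in WT, and +6 between 0.0267% and 0.0313% in hot3-2 and between 0.00543% and 0.00881% in WT.

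The end +7, next to the A1 cluster, changed most of the 5. Its nonpolysome level was 0.549%, 0.364%, 0.601% and 0.408% in hot3-2, against 0.0179%, 0.0160%, 0.0182% and 0.0193% in WT. In the total extract it was 0.167%, 0.157%, 0.187% and 0.186% in hot3-2, against 0.0107%, 0.0111%, 0.00871% and 0.0123% in WT. In polysomes it was 0.132%, 0.130%, 0.141% and 0.153% in hot3-2, against 0.00777%, 0.00970%, 0.00681% and 0.00916% in WT. The lowest hot3-2 library of each fraction exceeded the highest WT library by a larger factor than at any other of the 5 ends. The fold changes were 26.9 in nonpolysomes, 16.2 in total extract and 16.6 in polysomes, which are log2 values of 4.75 ± 0.24, 4.02 ± 0.13 and 4.05 ± 0.22 (edgeR adjusted p = 1.79e-08, 5.39e-11 and 3.73e-13).

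These calls are not particular to the stretch, since most positions rose in hot3-2 relative to the D site. All 5 ends passed the test in nonpolysomes, where 93.1% of the 29 positions tested were called higher, and all 5 in the total extract, where 82.8% were. In polysomes 4 of 5 passed, with 75.9% of positions called higher. The genotypes did not overlap at 5, 5 and 4 of the 5 ends in nonpolysomes, total extract and polysomes, against 93.1%, 79.3% and 75.9% of all positions. No position was called lower in hot3-2 in any of the 3 fractions.

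What set the 5 ends apart from each other was their size of change relative to the other positions. The median log2 fold change over the 29 positions was 2.68 in nonpolysomes, 2.38 in total extract and 1.97 in polysomes. Relative to it, +3 was 1.49, 1.62 and 1.63 below, whereas +7 was 2.07, 1.64 and 2.08 above and ranked 3 of 29 in each fraction. When libraries were scaled on the 29 positions themselves (TMM) and not on the D site, that median moved to 0.14, 0.12 and 0.02, and +3 was called lower in hot3-2 in all 3 fractions, with -1.43, -1.48 and -1.61 in nonpolysomes, total extract and polysomes. On that scale +4 was called lower in polysomes (-0.61, edgeR adjusted p = 0.0271) and not in nonpolysomes (-0.23, adjusted p = 0.108) or total extract (-0.42, adjusted p = 0.0607). In polysomes +5 and +6 were then at -0.099 (adjusted p = 0.568) and 0.024 (-0.029 with DESeq2 size factors), neither called. The end +7 was higher in hot3-2 on either scale, with TMM values of 2.10, 1.77 and 2.10. Over all 29 positions, TMM scaling called 13 higher and 8 lower in nonpolysomes, 10 higher and 11 lower in total extract, and 10 higher and 10 lower in polysomes, against 27, 24 and 22 higher and 0 lower relative to the D site.

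**Figure D2:**
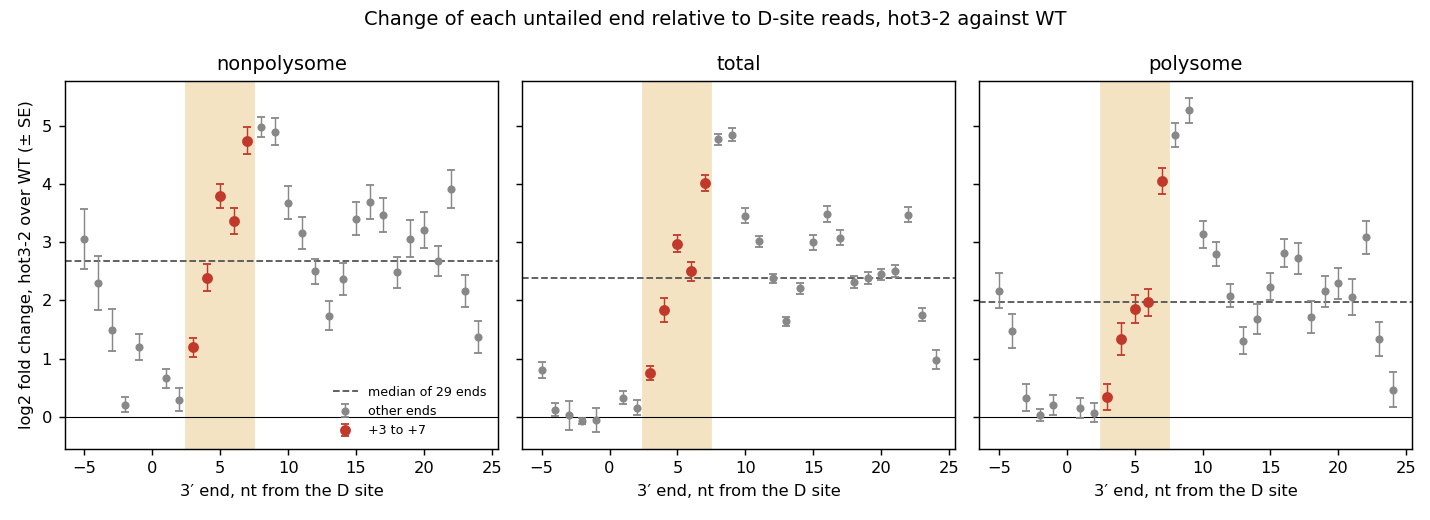
Log2 fold change of each of 29 untailed ends, hot3-2 over WT, with its SE, against distance from the D site in nt, in 3 fractions; the 5 ends are red on a shaded band and the dashed line is the median of the 29 ends. The change climbs across the band from +3, which lies below the median, to +7, which lies above it, with +5 above +6 in nonpolysomes and total extract, and on the TMM scale +3 is called lower in hot3-2 in each fraction and +4 in polysomes.

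The same contrast in the dcl2 dcl4 background gave the same order of change among the 5 ends in each fraction. Between hot3-2 dcl2 dcl4 and dcl2 dcl4, the log2 fold changes from +3 to +7 were 1.26, 2.50, 4.06, 3.30 and 4.57 in nonpolysomes (SE 0.14 to 0.20). They were 0.85, 1.45, 3.32, 2.71 and 4.21 in total extract (SE 0.12 to 0.17) and 0.53, 1.01, 1.48, 1.94 and 4.07 in polysomes (SE 0.15 to 0.24). All 15 passed the edgeR test, with adjusted p of at most 0.00601, and 93.1%, 75.9% and 82.8% of the 29 positions were called higher in these fractions. At +7 the total-extract levels were 0.186%, 0.186%, 0.211% and 0.206% in hot3-2 dcl2 dcl4, against 0.00935%, 0.0115%, 0.00944% and 0.0122% in dcl2 dcl4. On the TMM scale +3 was called lower in hot3-2 dcl2 dcl4 in all 3 fractions (-1.0, -1.31 and -1.07), as was +4 in total extract and polysomes (-0.71 and -0.56), while +5 in polysomes was at -0.12 and not called (edgeR adjusted p = 0.295). The difference between the hot3-2 changes with and without dcl2 dcl4 was called at 0 of 5 ends in each fraction (0% of 29 positions), and it ranged from -0.39 to 0.35 (unadjusted p under 0.05 at 0 ends).

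Relative to the D site and with all libraries in the fit, loss of DCL2 and DCL4 by itself left no called change at these ends. In dcl2 dcl4 against WT the log2 fold changes lay between -0.25 and 0.11 in nonpolysomes, between -0.35 and 0.03 in total extract and between -0.12 and 0.20 in polysomes. By edgeR 0 of 5 ends and 0% of the 29 positions were called in each, and 1 end passed an unadjusted p under 0.05, namely +4 in total extract (-0.35 ± 0.15, unadjusted p = 0.0427, 95% interval -0.68 to -0.01). The DESeq2 test at the same library sizes also called 0 of 5 ends. With DESeq2 size factors as library size, edgeR called +4 and +5 lower in nonpolysomes (-0.46 and -0.49, adjusted p = 0.025 and 0.031). That fit called 3 of the 29 positions higher and 5 lower. Replicates 1 and 3 alone called +4 lower in total extract (-0.67, edgeR adjusted p = 0.000101) and nonpolysomes (-0.54, adjusted p = 0.00854). The 95% intervals still reached a log2 change of 0.69, at +5 in polysomes.

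Between hot3-2 dcl2 dcl4 and hot3-2, the end that differed most was +4 in the total extract. Its level was 0.0875%, 0.0903%, 0.0968% and 0.0956% in hot3-2 dcl2 dcl4, against 0.108%, 0.185%, 0.122% and 0.202% in hot3-2. The genotypes did not overlap there, which was so for 3.45% of positions in that direction, and replicates 2 and 4 of hot3-2 stood well above the rest. The log2 fold change was -0.74 ± 0.18 and missed the threshold (edgeR adjusted p = 0.0536, unadjusted p = 0.00185), with 0% of positions called in either direction, while DESeq2 called 1 of the 5 ends, +4. It passed without hot3-2 total replicate 1 (-0.87, adjusted p = 0.00597) or replicate 3 (-0.83, adjusted p = 0.0230), the 2 hot3-2 libraries nearest to hot3-2 dcl2 dcl4. Same-numbered libraries of these 2 groups deviated together, and with the replicate number as a block all 5 ends were called, +4 at -0.69 (adjusted p = 0.00926) and the other 4 higher by 0.12 to 0.18, while that fit called 14 of the 29 positions higher and 3 lower. In the other fractions 0 of 5 ends were called (0% of positions higher in both, 0% lower in nonpolysomes and 6.9% lower in polysomes, and no end with an unadjusted p under 0.05), and +4 changed by -0.14 ± 0.20 in nonpolysomes and -0.24 ± 0.28 in polysomes.

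Along the gradient, the 5 ends were more abundant relative to the D site in the nonpolysome fraction. In hot3-2 the log2 fold changes from +3 to +7 were 0.98, 1.10, 1.60, 1.27 and 1.46 against total extract and 1.18, 2.14, 2.59, 1.85 and 1.79 against polysomes. In hot3-2 dcl2 dcl4 they were 0.95, 1.70, 1.49, 1.10 and 1.22 against total extract and 1.21, 2.24, 2.78, 1.95 and 1.73 against polysomes. All 20 passed the edgeR test, with adjusted p of at most 0.00135 and no overlap between the fractions. On the TMM scale some calls against total extract were lost. In hot3-2 these were +3 and +4, with values below 0 (-0.11 and -0.019), and +6 (0.16, edgeR adjusted p = 0.0699). In hot3-2 dcl2 dcl4 they were +3, +6 and +7, with values below 0 (-0.26, -0.11 and -0.0052). The adjusted p was at least 0.0617 at each of these ends. Of the 29 positions, 96.6% in hot3-2 and 100% in hot3-2 dcl2 dcl4 were called higher against total extract, and 96.6% in each against polysomes. The fractions likewise did not overlap at 96.6% of positions in each of these 4 comparisons.

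In the genotypes without the hot3-2 allele the differences along the gradient were smaller. In dcl2 dcl4, nonpolysome over total extract gave 0.54, 0.65, 0.75, 0.51 and 0.86 from +3 to +7, all called (adjusted p of at most 0.00510, 93.1% of positions called, on the TMM scale none called, with values of -0.36 to -0.010), and the fractions did not overlap at 3 of the 5 ends (86.2% of positions). Nonpolysome over polysome gave 0.47, 0.75, 0.19, 0.59 and 1.23 in dcl2 dcl4, with +5 not called (adjusted p = 0.249, 89.7% of positions called) and no overlap at the other 4 (89.7%). In WT, nonpolysome over total extract gave 0.55, 0.54, 0.78, 0.41 and 0.74, with 4 of 5 called (75.9% of positions, on the TMM scale none called, with -0.15 and -0.20 at +3 and +4), +6 not (adjusted p = 0.0805), and no overlap at 3 of 5 (69% of positions). Nonpolysome over polysome gave 0.33, 1.09, 0.65, 0.45 and 1.09 in WT, with +3 and +6 not called (adjusted p = 0.174 and 0.0730, 86.2% of positions called) and no overlap at the other 3 (82.8%). The +4 call of WT against total extract was lost without nonpolysome replicate 1 or 3 or total replicate 1 or 4 (adjusted p = 0.0508 to 0.0571), and the +6 call against polysomes was gained without polysome replicate 2 (0.56, adjusted p = 0.0391).

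Most other positions had a larger nonpolysome excess over polysomes than these 5. The median change over 29 positions, nonpolysome over polysome, was 2.72 in hot3-2, 2.83 in hot3-2 dcl2 dcl4, 2.04 in dcl2 dcl4 and 1.96 in WT, above all 5 ends in each genotype. On the TMM scale the values of these ends were below 0, except at +5 in hot3-2 (0.36, and -0.022 with DESeq2 size factors) and in hot3-2 dcl2 dcl4 (0.45). In hot3-2 the TMM values at +3, +6 and +7 were -1.03, -0.40 and -0.47, each called lower in nonpolysomes, and +4 was at -0.083 and not called (edgeR adjusted p = 0.720). The same 3 ends were called lower in hot3-2 dcl2 dcl4 (-1.11, -0.39 and -0.61, adjusted p of at most 0.000791). All 5 were in dcl2 dcl4 (-1.61 to -0.57, adjusted p of at most 0.00198). In WT +3, +5 and +6 were (-1.07, -0.73 and -0.95, adjusted p of at most 0.00470). As a share of untailed ends +1 to +22, the 5 ends made up 8.43% ± 0.670, 6.70% ± 0.559 and 10.8% ± 0.359 in hot3-2 nonpolysomes, total extract and polysomes, and 5.71% ± 0.474, 5.75% ± 0.326 and 7.33% ± 0.555 in WT (SD, n = 4 each).

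**Figure D3:**
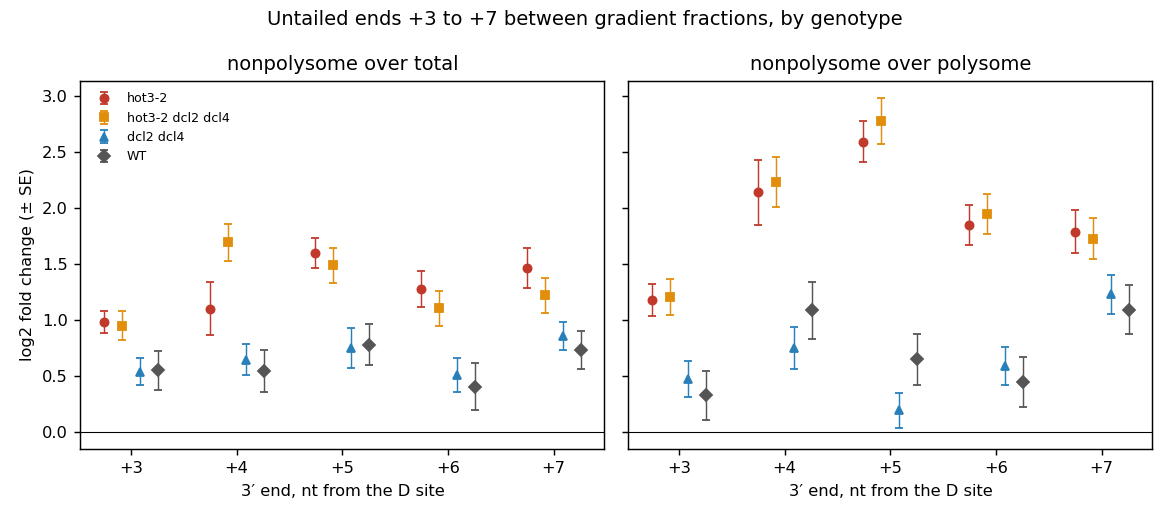
Log2 fold change of untailed ends +3 to +7, nonpolysome over total extract (left) and over polysome (right), relative to D-site reads, with SE, for 4 genotypes. Over polysomes, +5 is the highest end in hot3-2 (2.59) and the lowest in dcl2 dcl4 (0.19); on the TMM scale most of the values over polysome are below 0.

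Whether the hot3-2 change differed between fractions was tested directly. The change in nonpolysomes minus that in total extract was 0.82 ± 0.23 at +5, 0.87 ± 0.27 at +6 and 0.73 ± 0.24 at +7 (edgeR interaction test, adjusted p = 0.0173, 0.0260 and 0.0284), and 0.43 and 0.56 at +3 and +4 (adjusted p = 0.136 and 0.201). These 3 calls compare with 24.1% of the 29 positions. The calls at +6 and +7 were lost without any 1 of 7 of the 16 libraries, which were hot3-2 nonpolysome replicate 1 or 3, WT nonpolysome replicate 2, hot3-2 total replicate 1 or 2, and WT total replicate 2 or 4. No end of the 5 was called when tailed reads were counted as well (3 of the 29 positions higher, and 2 of the 5 ends at an unadjusted p under 0.05) or on the TMM scale (0 higher and 1 lower, and 0 of the 5 ends at an unadjusted p under 0.05).

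Against polysomes the difference was larger at +5. The hot3-2 change in nonpolysomes minus that in polysomes was 1.95 ± 0.28 at +5, the highest of the 29 positions, and 1.40 ± 0.28 at +6 (edgeR interaction test, adjusted p = 4.17e-05 and 0.00116). It was 0.85 ± 0.24 at +3 (adjusted p = 0.0192), 1.05 ± 0.39 at +4 and 0.70 ± 0.26 at +7 (adjusted p = 0.0617 each), and 17.2% of positions were called. The +3 call was lost with all counted reads as library size (0.62, edgeR adjusted p = 0.0866). The +4 and +7 calls were gained without hot3-2 nonpolysome replicate 2, WT nonpolysome replicate 3, hot3-2 polysome replicate 4 or WT polysome replicate 3. On the TMM scale 0 of 5 ends were called (0 of the 29 positions higher and 2 lower, and 1 of the 5 ends at an unadjusted p under 0.05), with 1.00 at +5 (adjusted p = 0.106) and -0.072 at +3.

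Ratios of neighbouring ends within a library do not depend on the D-site count, so they were used to describe the profile. Only the pairs from +3 over +2 to +8 over +7 were taken. Whether ratios elsewhere in ITS1 differ in the same way was not tested. Untailed reads at +7 over those at +6 were 4.69 in hot3-2 and 1.82 in WT nonpolysomes, 4.14 in hot3-2 and 1.47 in WT total extract, and 4.91 in hot3-2 and 1.17 in WT polysomes (geometric means of 4 libraries). Untailed reads at +4 over +3 were 6.03 in hot3-2 and 2.64 in WT nonpolysomes, 5.47 in hot3-2 and 2.69 in WT total extract, and 3.0 in hot3-2 and 1.54 in WT polysomes. These ratios and that of +3 over +2 were higher in hot3-2 without overlap in every fraction. The exact two-sided permutation test gave p = 0.0286 for each, the smallest that 4 against 4 libraries allow, and 0.0343 after Benjamini-Hochberg adjustment over 36 tests.

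The ratio of +5 to +4 was 0.479 in hot3-2 and 0.181 in WT nonpolysomes and 0.347 in hot3-2 and 0.151 in WT total extract (exact permutation test, adjusted p = 0.0343 each). In polysomes it was 0.364 in hot3-2 and 0.247 in WT, where the genotypes overlapped (adjusted p = 0.147). The ratio of +6 to +5 was the only one lower in hot3-2 without overlap, at 0.812 in hot3-2 and 1.12 in WT total extract (adjusted p = 0.0343). In nonpolysomes it was 0.643 in hot3-2 and 0.869 in WT (adjusted p = 0.0664), and in polysomes 1.09 in hot3-2 and 1.00 in WT (adjusted p = 0.571). With tailed reads counted as well, the call in total extract was lost (log2 difference -0.30, adjusted p = 0.0643) and that in nonpolysomes was gained (-0.35, adjusted p = 0.0332). The ratio of +8 to +7 was 3.99 in hot3-2 and 2.38 in WT total extract and 2.55 in hot3-2 and 1.46 in WT polysomes (adjusted p = 0.0343 each), and 2.65 in hot3-2 and 2.23 in WT nonpolysomes (adjusted p = 0.121, and 0.0332 with tailed reads counted).

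The ratios between hot3-2 dcl2 dcl4 and dcl2 dcl4 went the same way in nonpolysomes and total extract, where all 6 passed in each. In polysomes 4 of 6 passed, and +4 over +3 and +5 over +4 did not (exact permutation test, adjusted p = 0.0964 and 0.121), the second of which passed with tailed reads counted (adjusted p = 0.0332). The ratio of +7 to +6 was 4.50 in hot3-2 dcl2 dcl4 and 1.88 in dcl2 dcl4 nonpolysomes, and 5.25 in hot3-2 dcl2 dcl4 and 1.21 in dcl2 dcl4 polysomes (exact permutation test, adjusted p = 0.0343 each). At +6 over +5 the fractions had opposite signs, with 0.646 in hot3-2 dcl2 dcl4 and 1.09 in dcl2 dcl4 nonpolysomes but 1.16 in hot3-2 dcl2 dcl4 and 0.814 in dcl2 dcl4 polysomes, each without overlap (adjusted p = 0.0343 each). In total extract that ratio was 0.839 in hot3-2 dcl2 dcl4 and 1.30 in dcl2 dcl4, a call that was lost with tailed reads counted (adjusted p = 0.118). The difference between these fractions was not tested.

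**Figure D4:**
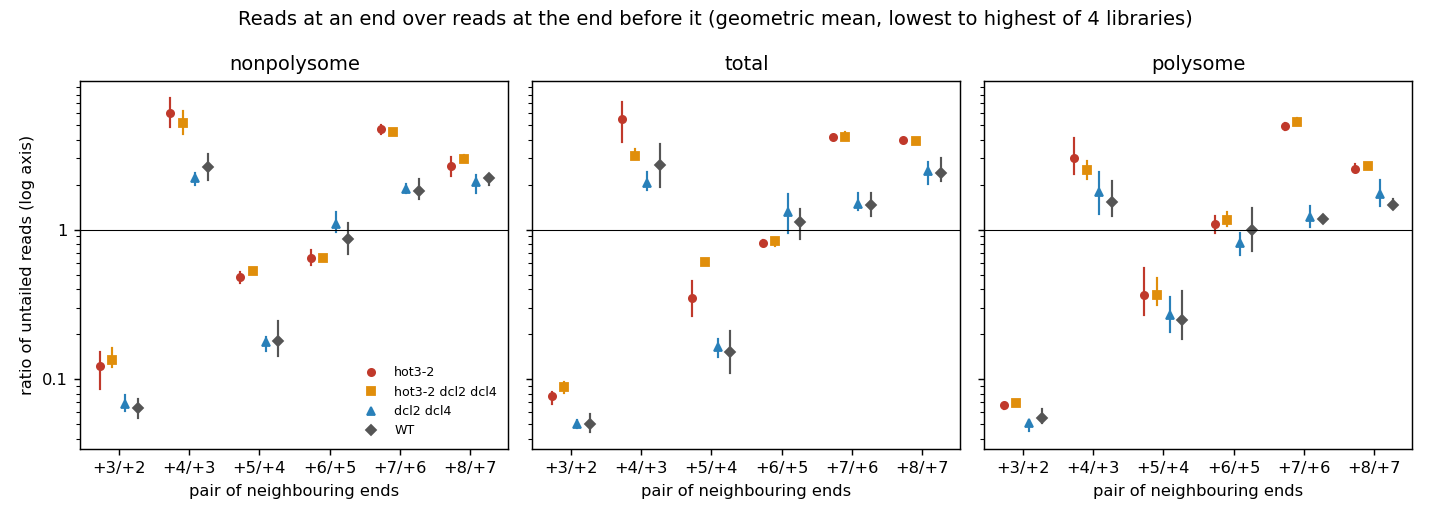
Ratio of untailed reads at an end to those at the end before it (log axis), for 6 neighbouring pairs in 3 fractions, with the geometric mean as a point and the lowest to highest of 4 libraries as a line. On the log2 scale the +7/+6 ratio is at least 1.98 in every hot3-2 and hot3-2 dcl2 dcl4 library and at most 1.11 in every dcl2 dcl4 and WT library.

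Tails were not used to choose these ends, and their share varied widely along the stretch. Tailed shares were tested at these ends only, so whether other positions differ in the same way was not tested. A recorded tail never begins with the next ITS1 base, which differs between the ends. The shares at +3 and +5 therefore leave out tails that begin with A, so shares of different ends are not fully comparable. Tailed reads made up 1.93% ± 0.640 of reads at +4 in hot3-2 and 2.14% ± 0.387 in WT total extract, while at +7 they made up 46.7% ± 0.116 in hot3-2 and 41.4% ± 5.08 in WT (SD, n = 4 each). At +3 the shares were 8.33% ± 0.576 in hot3-2 and 9.13% ± 2.57 in WT. The end +4 had the lowest share and +7 the highest in each of the 12 groups.

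In polysomes the tailed shares of +5, +6 and +7 did not overlap between hot3-2 and WT. At +5 they were 24.4% ± 1.67 in hot3-2 and 7.56% ± 1.88 in WT. At +6 they were 34.4% ± 2.11 in hot3-2 and 13.2% ± 2.94 in WT, and at +7 51.3% ± 1.57 in hot3-2 and 31.3% ± 0.913 in WT. In the dcl2 dcl4 background the polysome shares from +5 to +7 were 29.3%, 38.8% and 54.9% in hot3-2 dcl2 dcl4 and 7.08%, 11.6% and 30.6% in dcl2 dcl4. The polysome shares at +5 rest on 11 to 32 tailed reads a library in WT and 11 to 27 in dcl2 dcl4. In total extract +5 and +6 did not overlap either. There they were 15.3% ± 1.64 and 31.7% ± 1.10 in hot3-2, and 10.2% ± 2.46 and 18.8% ± 3.87 in WT. In the dcl2 dcl4 background the total-extract shares did not overlap at +6 (33.2% in hot3-2 dcl2 dcl4 and 17.7% in dcl2 dcl4). They overlapped at +5 (16.0% and 14.0%). The nonpolysome share at +5 had the opposite order, with 9.17% ± 0.769 in hot3-2 and 16.0% ± 2.88 in WT, and 10.6% ± 1.71 in hot3-2 dcl2 dcl4 and 20.5% ± 4.53 in dcl2 dcl4. Apart from +5 in total extract of the dcl2 dcl4 background, each of these differences had p = 0.0286 in the exact two-sided permutation test. That is the smallest possible value, and 14 of the 30 tests run reached it. After Benjamini-Hochberg adjustment these tests had 0.0612 and missed the threshold. With such a floor, the adjusted value depends on how many tests reach it, which for the neighbouring-end ratios was 30 of 36. That the ratios passed and the tailed shares did not is therefore no measure of their relative strength.

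**Figure D5:**
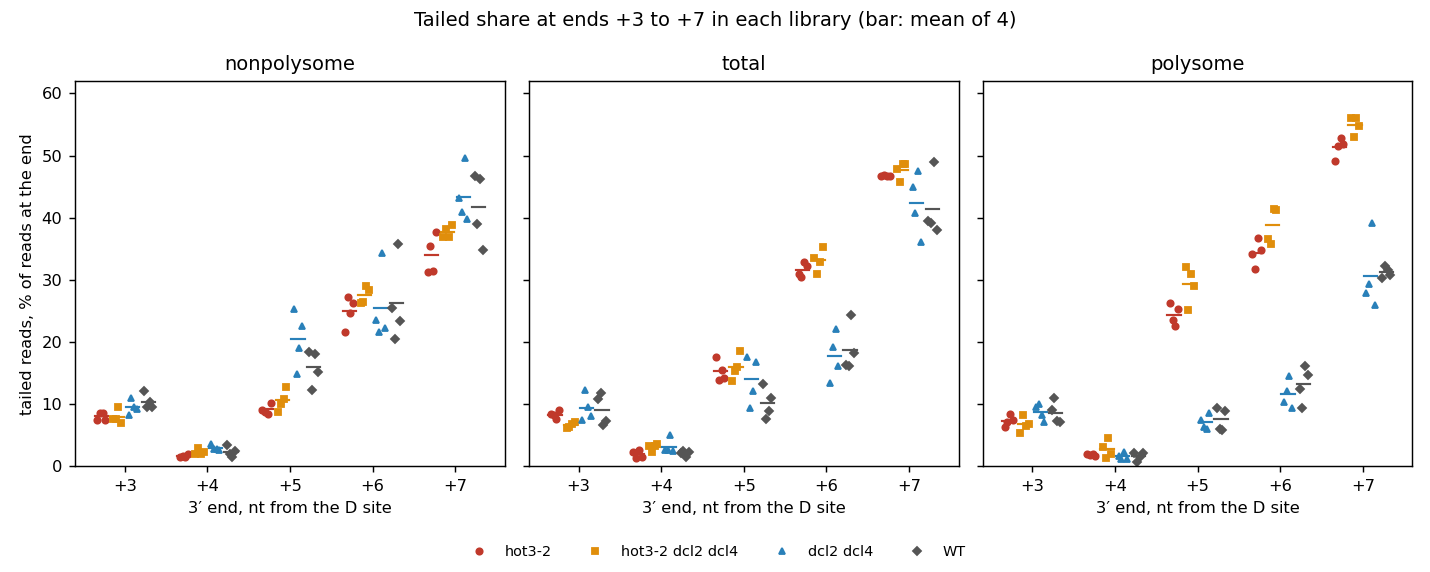
Reads with a nontemplated tail as a percentage of all reads at each end, in each of the 48 libraries, with 1 panel for each fraction and a bar at the mean of 4 libraries. In polysomes the hot3-2 and hot3-2 dcl2 dcl4 points at +5, +6 and +7 lie above those of dcl2 dcl4 and WT without overlap, and at +4 all shares are low.

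Recorded tail length, which leaves out leading bases that match ITS1, also differed along the stretch. In the hot3-2 total extract, tails of 1 nt made up 37.1% ± 1.48 of tailed reads at +7 and tails of 2 nt 29.2% ± 1.22, and in WT these were 31.9% ± 3.92 and 14.6% ± 1.04. At +3 the class of 10 nt, the longest one recorded, held 30.2% ± 11.9 in hot3-2 and 32.1% ± 16.2 in WT. At +4 the class of 10 nt held 23.0% ± 4.05 of tailed reads in hot3-2 and 50.5% ± 10.6 in WT. The shares at +3 and +4 rest on few tailed reads. At +3 there were 54 to 86 tailed reads a library in hot3-2 and 25 to 70 in WT. At +4 there were 55 to 93 in hot3-2 and 21 to 36 in WT. No test was run on these length classes.

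Across the 12 group means, each end was compared with the other positions by the root mean square difference of its log2 profile, after subtracting each position's own mean. The end +3 was nearest to +1 (0.31), -3 (0.43) and +24 (0.45). The end +4 was nearest to +24 (0.49), +23 (0.51) and +6 (0.51). The ends +5 and +6 were nearest to each other (0.31), then +5 to +15 and +19 (0.58 and 0.64) and +6 to +4 and +19 (0.51 and 0.58). The end +7 was nearest to +8 (0.40), +9 (0.51) and +22 (0.75). By this measure the 5 ends did not share 1 profile, and +7 lay 1.75 from +3.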

How the data were processed

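Values are from 48 18S-ENDseq libraries (4 genotypes, 3 fractions, 4 libraries a group). The authors self-ligated RNA, amplified across the 18S junction, trimmed reads with cutadapt 4.2 and aligned them with STAR 2.7.10b (submitters' processing notes) to their own 45S reference. The deposited values are raw read counts for each 3′ end position and tail length, for molecules with a mature 18S 5′ end. Bases come from TAIR10.1, used only for sequence.

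Untailed counts at 29 positions other than the D site (at least 10 reads in at least 4 libraries) were tested with edgeR 4.0.16 (R 4.3.3), quasi-likelihood, library size = untailed D-site count, Benjamini-Hochberg over the 29, threshold 0.05, with only the compared groups in a fit. Intervals use the fit's t distribution. Within-library ratios (0.5 added to each count) and tailed shares were tested by exact permutation over 70 arrangements. In simulated libraries like WT total extract, edgeR called 100% of 150 positions changed by log2 1 and 1.65% of 1150 unchanged ones. The simulated positions were drawn independently at a dispersion of 0.02, and most were unchanged. In the real hot3-2 comparisons most positions changed, and positions of a library deviated together. The simulated rates therefore check the code and do not give the power or error rate of the real tests. Alternatives were other library sizes (all reads, TMM, DESeq2 1.42.0 size factors), DESeq2, no filter, tailed reads counted, each library left out, replicate pairs and a replicate block. The replicate number was taken to pair 2 groups where all same-number correlations of deviations exceeded 0.1, which held in 9 of 20 comparisons.

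All 5 ends are named in every comparison, and for each the 3 positions nearest in profile. The members, defined by position, and the lists and tests were chosen with earlier results of these data known. The labels do not say whether libraries of a group came from separate plants, so p-values measure the spread between these libraries. In several groups replicates 1 and 3 stood apart from replicates 2 and 4. The main tests treat all libraries of a group as separate and do not model that split.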

Additional observations from a re-analysis of the deposited data

Results flagged for a closer look

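The hot3-2 change in nonpolysomes minus that in total extract was called at +5 (0.82), +6 (0.87) and +7 (0.73, log2, edgeR interaction test), with 24.1% of positions called. The calls at +6 and +7 were lost without any 1 of 7 of the 16 libraries and with all counted reads as library size. None of the 3 was called with tailed reads counted or with TMM. Minus that in polysomes, the hot3-2 change in nonpolysomes was called at +3 (0.85), +5 (1.95) and +6 (1.40), with 17.2% of positions called. The +3 call was lost with all counted reads as library size, and none of the 3 was called with TMM.

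The 4 outlying libraries stood apart from the other 3 of their group by Dixon's criterion, in 120 groups tested, of which chance alone would place about 1 in 20. All 4 carried replicate number 3, and the reason was not tested. The untailed level at +3 was 0.0240% in hot3-2 total replicate 3, against 0.0280% to 0.0287% in the others. The tailed share at +7 was 48.9% in WT total replicate 3, against 38.0% to 39.4%. The tailed share at +4 was 5.10% in dcl2 dcl4 total replicate 3, against 2.45% to 2.64%, and at +6 it was 34.4% in dcl2 dcl4 nonpolysome replicate 3, against 21.7% to 23.5%.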

How the results depend on the processing

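Scaling mattered most. With TMM, values called relative to the D site, on the new scale or on both changed sign as follows (log2, from +3 outwards). Some were called on the new scale only, with TMM and with DESeq2 size factors. They were hot3-2 over WT at +3 in polysomes, and nonpolysome over polysome at +5 in dcl2 dcl4 and at +3 and +6 in WT. For hot3-2 over WT they were -1.43 and -0.23 at +3 and +4 in nonpolysomes, -1.48 and -0.42 in total extract, and -1.61, -0.61 and -0.10 at +3 to +5 in polysomes. For hot3-2 dcl2 dcl4 over dcl2 dcl4 they were -1.0 at +3 in nonpolysomes, -1.31 and -0.71 at +3 and +4 in total extract, and -1.07, -0.56 and -0.12 at +3 to +5 in polysomes. Nonpolysome over total gave -0.11 and -0.019 at +3 and +4 in hot3-2, -0.26, -0.11 and -0.0052 at +3, +6 and +7 in hot3-2 dcl2 dcl4, -0.33, -0.22, -0.11, -0.36 and -0.010 at +3 to +7 in dcl2 dcl4, and -0.15 and -0.20 at +3 and +4 in WT. Nonpolysome over polysome gave -1.03, -0.083, -0.40 and -0.47 at +3, +4, +6 and +7 in hot3-2, -1.11, -0.10, -0.39 and -0.61 in hot3-2 dcl2 dcl4, -1.34, -1.03, -1.61, -1.20 and -0.57 at +3 to +7 in dcl2 dcl4, and -1.07, -0.36, -0.73, -0.95 and -0.31 in WT. The hot3-2 change in nonpolysomes minus polysomes was -0.072 at +3. With DESeq2 size factors hot3-2 over WT gave -1.67 and -0.49 in nonpolysomes, -1.58 and -0.53 in total extract, and -1.67, -0.67, -0.15 and -0.029 at +3 to +6 in polysomes. There hot3-2 dcl2 dcl4 over dcl2 dcl4 gave -1.16 in nonpolysomes, -1.44 and -0.85 in total extract, and -1.11, -0.63 and -0.17 in polysomes. Nonpolysome over total gave -0.15 and -0.054 in hot3-2, -0.21 and -0.071 at +3 and +6 in hot3-2 dcl2 dcl4, -0.42, -0.31, -0.20, -0.45 and -0.10 in dcl2 dcl4, and -0.17 and -0.20 in WT. Nonpolysome over polysome gave -1.41, -0.46, -0.022, -0.78 and -0.86 in hot3-2, -1.57, -0.53, -0.84 and -1.07 at +3, +4, +6 and +7 in hot3-2 dcl2 dcl4, -1.57, -1.28, -1.84, -1.44 and -0.80 in dcl2 dcl4, and -1.53, -0.77, -1.18, -1.39 and -0.75 in WT. Both scalings remove a shift common to most of the 29 positions by construction.

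The number of the 5 ends called (either direction) moved by over 1.5 times as follows. With TMM it was 3 for hot3-2 over WT in total extract, 2 for nonpolysome over total in hot3-2 and in hot3-2 dcl2 dcl4, 0 for dcl2 dcl4 and for WT, and 0 for both differences between fractions. With DESeq2 size factors it was 1 for hot3-2 dcl2 dcl4 over hot3-2 and 2 for dcl2 dcl4 over WT in nonpolysomes, 2, 2, 1 and 0 for nonpolysome over total in hot3-2, hot3-2 dcl2 dcl4, dcl2 dcl4 and WT, 3 in hot3-2 and 5 in WT for nonpolysome over polysome, 0 for the change in nonpolysomes minus total and 1 for that minus polysomes. The DESeq2 test called 1 for hot3-2 dcl2 dcl4 over hot3-2 in total extract and 5 for nonpolysomes minus polysomes. Replicates 2 and 4 alone gave 1 for hot3-2 dcl2 dcl4 over hot3-2 in total extract and 2 for nonpolysome over total in WT, and replicates 1 and 3 alone gave 1 for dcl2 dcl4 over WT in total extract, 1 in nonpolysomes and 5 for nonpolysome over polysome in WT. For nonpolysomes minus total, all counted reads as library size gave 1 and tailed reads included gave 0. Without the low-count filter no count moved. Over all 29 positions, nonpolysome over total was called higher at 28, 29, 27 and 22 in hot3-2, hot3-2 dcl2 dcl4, dcl2 dcl4 and WT, against 9, 5, 3 and 2 higher and 7, 6, 3 and 0 lower with TMM. Nonpolysome over polysome was called higher at 28, 28, 26 and 25, against 14, 16, 14 and 14 higher and 8, 10, 10 and 7 lower. For hot3-2 dcl2 dcl4 over dcl2 dcl4 the calls were 27, 22 and 24 higher in nonpolysomes, total extract and polysomes, against 13, 14 and 14 higher and 11, 12 and 12 lower with TMM. For hot3-2 dcl2 dcl4 over hot3-2 the block called 14 positions higher and 3 lower in total extract and 3 higher in nonpolysomes, and for dcl2 dcl4 over WT 6 higher in total extract, 6 higher and 3 lower in nonpolysomes and 1 lower in polysomes, against 0 in each without it. The cause of these differences was not tested.

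The replicate number as a block called 5 ends for hot3-2 dcl2 dcl4 over hot3-2 in total extract, against 0 without it. Among the other comparisons it added 1 call, hot3-2 over WT at +3 in polysomes (0.34, adjusted p = 0.0210), where the numbers did not pair the libraries, and changed no other call of the 5 ends. With 1 library left out, the count was 0 to 1 for hot3-2 dcl2 dcl4 over hot3-2 in total extract, 1 to 3 for nonpolysomes minus total and 3 to 5 for nonpolysomes minus polysomes. Of 1200 such values for single ends, 1171 stayed on the same side of the threshold, 18 lost a call and 11 gained one, and none of the called ones changed sign. The log2 ratio of the summed level with tailed reads included was 2.72 and 2.56 for hot3-2 over WT in total extract and polysomes, 2.89 and 2.58 for hot3-2 dcl2 dcl4 over dcl2 dcl4, and 1.58 for nonpolysome over polysome in hot3-2 dcl2 dcl4. Over all counted reads it was 2.95 for hot3-2 dcl2 dcl4 over dcl2 dcl4 in nonpolysomes and 1.69 for nonpolysome over polysome in hot3-2 dcl2 dcl4. Values that were called under neither setting and changed sign (52 with a library left out, 13 with TMM, 13 with size factors) are not counted as changes here. Counting intervals reached 18.2% of the value, and 4 libraries a group limit the exact tests to p = 0.0286.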
